A study of Mus musculus with 6 samples.

Results

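The IFIT proteins, interferon-induced proteins with tetratricopeptide repeats, are encoded in the mouse by a cluster of related genes. All 6 genes described here, Ifit1, Ifit1bl1, Ifit1bl2, Ifit2, Ifit3 and Ifit3b, were counted in the deposited tables, out of 35853 genes in all. They were chosen by family name and on their estimated counts and TPM in these 6 libraries, compared between Ly6C-high and Ly6C-low, so that contrast is a description for the 6 genes. How many of them each tool called is printed once beside the share of all genes called, and supports nothing. Blood neutrophils, positive for the surface protein Ly6G, had been sorted by their surface Ly6C, giving 3 Ly6C-high and 3 Ly6C-low libraries. Every mouse was a wild-type BALB/C animal that carried an orthotopic tumour of the line 4T1, a mouse mammary carcinoma, and blood was taken 4 weeks after implantation. No tumour-free animals entered the comparison. Whether each library was made from its own mouse is not stated in the labels, so p-values measure the spread between libraries, which may be technical.

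IFIT proteins bind RNA through repeated helical motifs and are made in large amounts after type I or type III interferon reaches a cell. IFIT1 binds RNA whose cap lacks the methyl mark that the host adds next to the cap, IFIT2 binds RNA and limits translation, and IFIT3 is a partner of other family members in complexes. Interferon signalling reaches these genes through transcription factors that bind a DNA element called the interferon-stimulated response element (ISRE).

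The genes lie next to each other on chromosome 19, in the order Ifit2, Ifit3, Ifit1bl1, Ifit3b, Ifit1bl2 and Ifit1. Ifit1bl1 and Ifit1bl2 are on the minus strand and the other 4 are on the plus strand. RefSeq promoter windows, from 250 bases before to 50 bases after an annotated start site on build GRCm38.p6, were given for all 6 genes, 9 windows in all. Windows were searched on both strands for an ISRE core, GAAA, any 2 bases and GAAA again (read on the opposite strand as TTTC, any 2 bases and TTTC). The core was found in windows of 5 of the 6 genes, against 3.44% of all 32851 windows and 3.99% of 27025 genes. These stretches are shown because they hold the cores, in capitals, written 5′ to 3′ along the strand of the gene. They come from the RefSeq reference, not from the sequenced mice, and are given at chr19:34640744-34640858 (plus strand) for Ifit1, chr19:34583353-34583432 (plus) for Ifit3, chr19:34607749-34607828 (plus) for Ifit3b and chr19:34602013-34602092 (minus) for Ifit1bl1.
Ifit1: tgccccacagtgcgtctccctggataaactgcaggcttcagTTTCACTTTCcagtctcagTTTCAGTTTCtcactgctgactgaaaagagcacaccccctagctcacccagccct
Ifit3: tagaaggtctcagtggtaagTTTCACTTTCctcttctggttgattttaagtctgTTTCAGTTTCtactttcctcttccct
Ifit3b: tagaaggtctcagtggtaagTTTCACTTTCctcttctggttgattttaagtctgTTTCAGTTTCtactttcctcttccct
Ifit1bl1: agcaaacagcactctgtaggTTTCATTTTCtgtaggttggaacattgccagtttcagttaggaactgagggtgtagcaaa

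The Ifit1 stretch also lies in a promoter window of Ifit1bl2. Ifit1 and Ifit1bl2 point away from each other, their annotated starts lie 145 bases apart, and their windows share 245 bases. The pair of cores at bases -104 to -95 and -85 to -76 from the Ifit1 start is the same pair that lies at -51 to -42 and -70 to -61 from the Ifit1bl2 start. The Ifit3 and Ifit3b stretches are identical over 80 bases, and their cores start 34 bases apart, against 19 bases in Ifit1. Windows with 2 or more cores made up 0.23% of all windows. Ifit1bl1 had a single core in each of its 2 windows, and a further window of Ifit1bl2 held none. No ISRE core was found in either window of Ifit2, which says only that these letters were absent there. One Ifit2 window held a match to the other motif searched, TTCNNNGAA (GAS), at -241 to -233, and 8.3% of all windows hold that motif. Of 33 other interferon-induced antiviral genes with a window, 16 (48.5%) held an ISRE core.

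**Figure D1:**
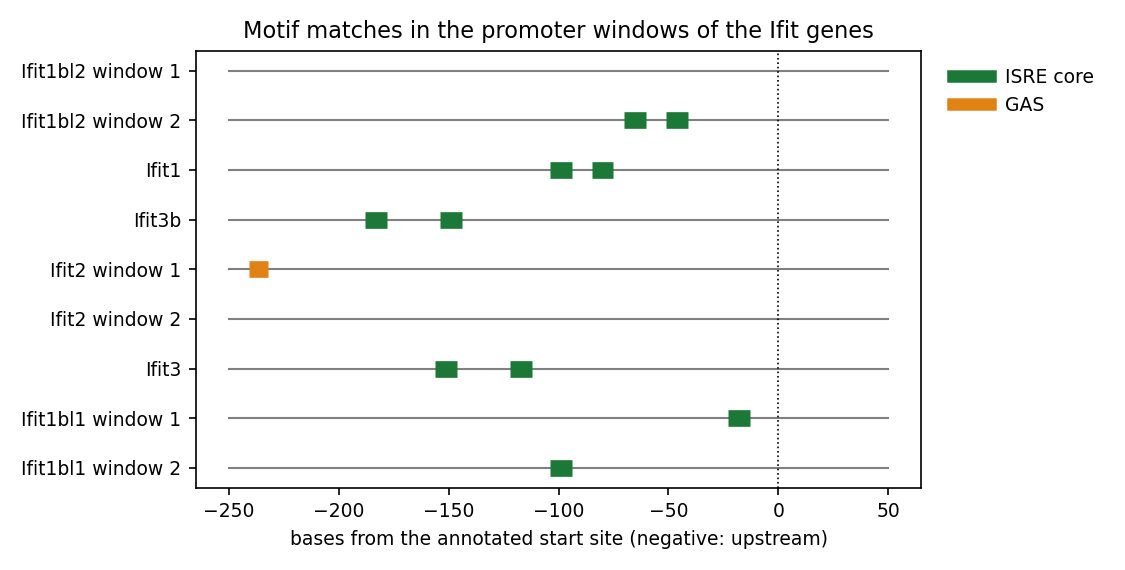
Matches to the ISRE core (green) and to the GAS motif (orange) in each RefSeq window of the 6 Ifit genes, by distance in bases from the annotated start site (dotted line), with grey lines for the extent of each window. Cores sit upstream of the start in windows of 5 genes, and the windows of Ifit2 hold 1 GAS match and no ISRE core.

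Library depth and identity were checked before the family was read. Estimated counts per library summed to between 17192372 and 20973623, and 11406 genes were tested. Ly6c2, one of the genes for the sorted surface protein, measured 125, 165 and 127 CPM (counts scaled to the size of the library) in the Ly6C-high libraries and 14.6, 24.4 and 16.9 CPM in the Ly6C-low libraries. Summed neutrophil markers were between 124900 and 133100 CPM in Ly6C-high and between 103900 and 118700 CPM in Ly6C-low, and the keratin genes Krt8, Krt18, Krt19 and Krt14 of mammary tumour cells were at 0 in all 6 libraries, with 12 counts of Epcam in all and 7.57 to 20.6 CPM of Cdh1, whose groups overlapped. Ly6C-low replicate 3 stood apart: its TMM scaling factor was 1.10, against 0.955 to 1.01 in the other libraries, and its basophil and mast cell markers summed to 33.7 CPM. That sum was 6.74 and 15.1 CPM in the other Ly6C-low libraries and 4.50 to 6.90 CPM in Ly6C-high. Of these markers, Mcpt8, Prss34 and Cpa3 were higher in all Ly6C-low libraries than in any Ly6C-high library. The groups overlapped for Fcer1a, Ms4a2, Gata2 and Cd200r3, and 10.9% of all tested genes were higher in all Ly6C-low libraries. The fold changes of the family and the medians of the gene lists are therefore also given without Ly6C-low replicate 3. So are the fold changes of the genes closest to the family in pattern. For the 3 genes with the smallest p in each list this was done where they moved by over 1.5 times. Fold changes of other named genes are from all 6 libraries only, and how far they rest on that library is not given.

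Each Ifit gene had a higher mean in the Ly6C-high libraries than in the Ly6C-low libraries, by 1.52-fold to 1.98-fold in CPM. The summed family measured 129, 148 and 181 CPM in Ly6C-high replicates 1, 2 and 3, and 87.0, 108 and 51.7 CPM in Ly6C-low replicates 1, 2 and 3. The group means were 152.6 ± 26.2 and 82.4 ± 28.7 CPM (SD, n = 3 each), a ratio of 1.85, or 0.89 on the log2 scale. All Ly6C-high libraries lay above all Ly6C-low libraries in this sum. Without Ly6C-low replicate 3 the ratio was 1.56, and without Ly6C-high replicate 3, the highest library, it was 1.68. In sorted pools such as these, fewer cells that hold a transcript and less of it per cell cannot be told apart.

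Ifit1 encodes the member best known for binding incompletely methylated caps. It measured 26.0, 27.6 and 40.4 CPM in the Ly6C-high libraries and 22.4, 24.5 and 12.6 CPM in the Ly6C-low libraries. Ly6C-high replicate 3 was the highest and Ly6C-low replicate 3 the lowest, and the other 4 libraries lay close together. The log2 fold change from edgeR was 0.66 with a standard error (SE) of 0.29, and 0.42 without Ly6C-low replicate 3. The groups did not overlap in CPM. In the deposited TPM, which divides by transcript length and by the library's own total, they did, with 10.8, 11.7 and 17.3 TPM against 9.96, 11.1 and 5.87 TPM.

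Ifit1bl2 and Ifit1bl1 are paralogs of Ifit1. Ifit1bl2 was the most abundant member in every library, with 76.9, 93.5 and 104 CPM in Ly6C-high and 46.9, 65.4 and 26.4 CPM in Ly6C-low. All Ly6C-high libraries lay above all Ly6C-low libraries, and the Ly6C-low values spread the more widely. The means were 91.6 ± 13.7 and 46.2 ± 19.5 CPM (SD, n = 3 each), 1.98-fold apart, and the log2 fold change was 0.99 (SE 0.34), or 0.71 without Ly6C-low replicate 3. Ifit1bl1 measured 4.28, 2.61 and 5.19 CPM in Ly6C-high and 2.70, 3.04 and 2.23 CPM in Ly6C-low. Its groups overlapped, since Ly6C-high replicate 2 lay below 2 of the Ly6C-low libraries. Its log2 fold change was 0.60 (SE 0.26), 0.50 without Ly6C-low replicate 3 and 0.38 without Ly6C-high replicate 3. Ifit1bl1 rested on 42 to 106 estimated counts per library, and the second of its 2 transcripts was listed at 0 in replicate 2 of both groups.

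Ifit2, the RNA-binding inhibitor of translation, had the smallest spread within groups when both groups are pooled (SD of 0.22 in log2 CPM), although in Ly6C-low alone Ifit1bl1 and Ifit3 spread less. It measured 11.7, 11.7 and 13.1 CPM in Ly6C-high and 6.99, 7.49 and 5.09 CPM in Ly6C-low. The lowest Ly6C-high library was well above the highest Ly6C-low library. Its means were 12.2 ± 0.787 and 6.52 ± 1.27 CPM (SD, n = 3 each), with a log2 fold change of 0.90 (SE 0.16) and of 0.75 without Ly6C-low replicate 3. Nearly all of its counts came from 1 of its 2 transcripts, the other holding at most 2.83 estimated counts in a library.

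Ifit3 and Ifit3b encode near copies of the partner protein IFIT3. Ifit3 measured 3.91, 3.57 and 5.78 CPM in Ly6C-high and 2.75, 2.78 and 2.02 CPM in Ly6C-low. Ifit3b measured 6.24, 8.85 and 12.1 CPM in Ly6C-high and 5.24, 5.24 and 3.29 CPM in Ly6C-low. In both genes the groups did not overlap, Ly6C-high replicate 3 was the highest library and Ly6C-low replicate 3 the lowest. The log2 fold changes were 0.82 (SE 0.24) for Ifit3 and 0.98 (SE 0.26) for Ifit3b, and 0.68 and 0.80 without Ly6C-low replicate 3.

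**Figure D2:**
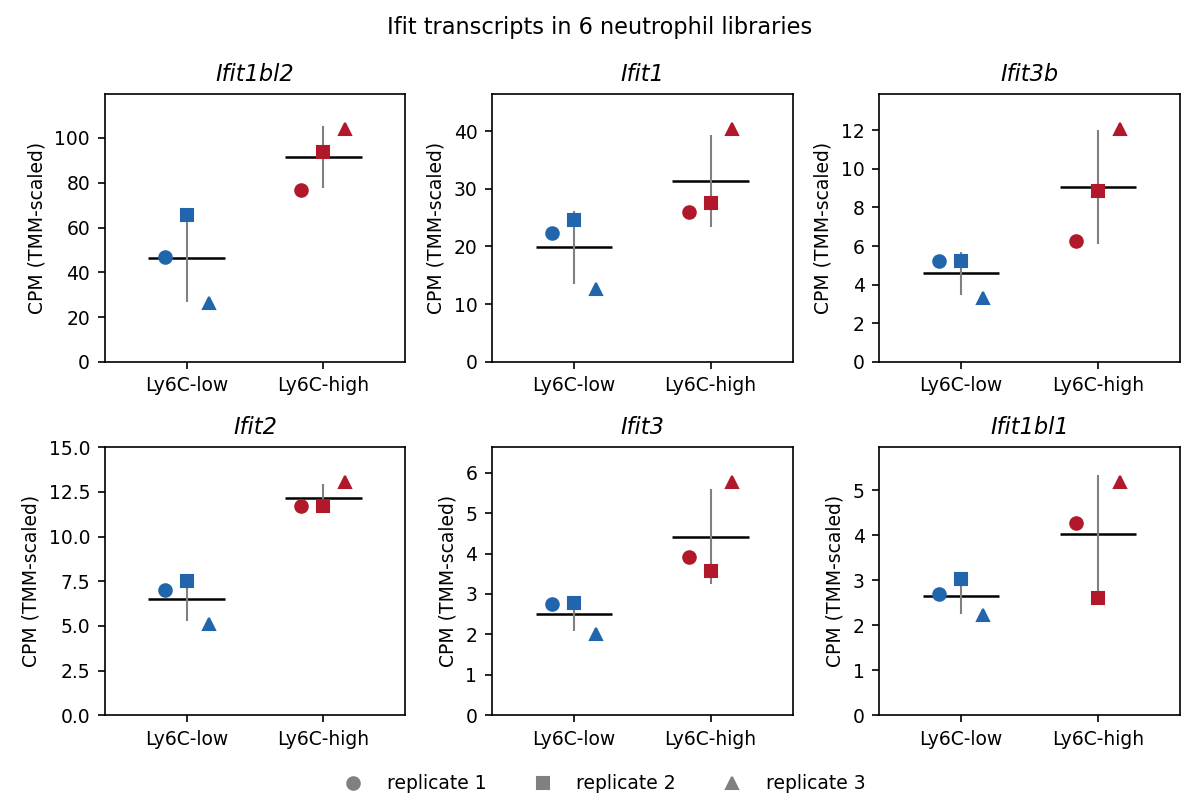
TMM-scaled CPM of the 6 Ifit genes in each library, with Ly6C-low in blue and Ly6C-high in red, marker shapes for the replicate number, black lines for the group mean and grey lines for 1 SD either side (n = 3). The groups do not overlap for 5 genes and overlap for Ifit1bl1, and each axis starts at 0 with its own range.

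Sequence shared between members limits how far their counts can be separated. The authors' tool, kallisto, shares out a read among all the transcripts it fits. Ifit3 and Ifit3b had coding sequences of 1209 bases each that differed at 11 bases (99.1% identity), and they shared 61.81% of the 31-base words of Ifit3 and 54.14% of those of Ifit3b. The division of reads between this pair is therefore uncertain. Their sum, which does not depend on that division, was 10.2, 12.4 and 17.9 CPM in Ly6C-high and 7.99, 8.02 and 5.30 CPM in Ly6C-low, a ratio of 1.90. Ifit1bl1 and Ifit1bl2 had coding sequences of 87.5% identity, and Ifit1 was 73.6% and 73.8% identical to them. These 3 genes held 80.74% to 89.24% of their words in no other gene, and their sum had a ratio of 1.85. Ifit2 shared no word with another gene, and its coding sequence was 54.4% to 56.0% identical to those of the other members. The span of Ifit1bl2 overlaps that of AC016791.2, a gene annotated on the opposite strand. Read without regard to strand, 1.47% of the words of Ifit1bl2 occurred in genes outside the family. The genes that held the most of these words were Gm37373, Spats1 and Gm43205, and AC016791.2 was not among them. Any reads that fit both Ifit1bl2 and AC016791.2 could not be told apart without a known strand setting.

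Levels were set against each other per length, in TPM. In 5 of 6 libraries the order was Ifit1bl2, Ifit1, Ifit3b, Ifit2, Ifit3 and Ifit1bl1, and in Ly6C-high replicate 3 Ifit3 stood above Ifit2. Mean levels in Ly6C-high were 30.0 ± 4.85 TPM for Ifit1bl2 and 13.3 ± 3.49 TPM for Ifit1, followed by 5.28 ± 1.76 TPM for Ifit3b (SD, n = 3 each). Ifit2 at 3.60 ± 0.266, Ifit3 at 3.01 ± 0.822 and Ifit1bl1 at 2.12 ± 0.690 TPM (SD, n = 3 each) came last. In Ly6C-low the means were 16.1 ± 6.65 TPM for Ifit1bl2, 8.97 ± 2.74 TPM for Ifit1 and 2.85 ± 0.639 TPM for Ifit3b, then 2.09 ± 0.427, 1.82 ± 0.271 and 1.49 ± 0.211 TPM for Ifit2, Ifit3 and Ifit1bl1 (SD, n = 3 each). In both groups the library values of Ifit1 lay above those of Ifit3b, whereas from Ifit3b down each gene overlapped the next in the order. Ifit1bl2 lay above Ifit1 without overlap in Ly6C-high and overlapped it in Ly6C-low. Ifit1bl2 held 43.4% to 56.1% of the family's TPM in a library. The ratio of Ifit1bl2 to Ifit1 counts was 2.96, 3.39 and 2.58 in Ly6C-high and 2.09, 2.67 and 2.09 in Ly6C-low for this pair, whose windows both hold the stretch printed for Ifit1. The groups overlapped in that ratio. The ratio of Ifit3b to Ifit3 also overlapped, at 1.59 to 2.48 in Ly6C-high and 1.63 to 1.91 in Ly6C-low.

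**Figure D3:**
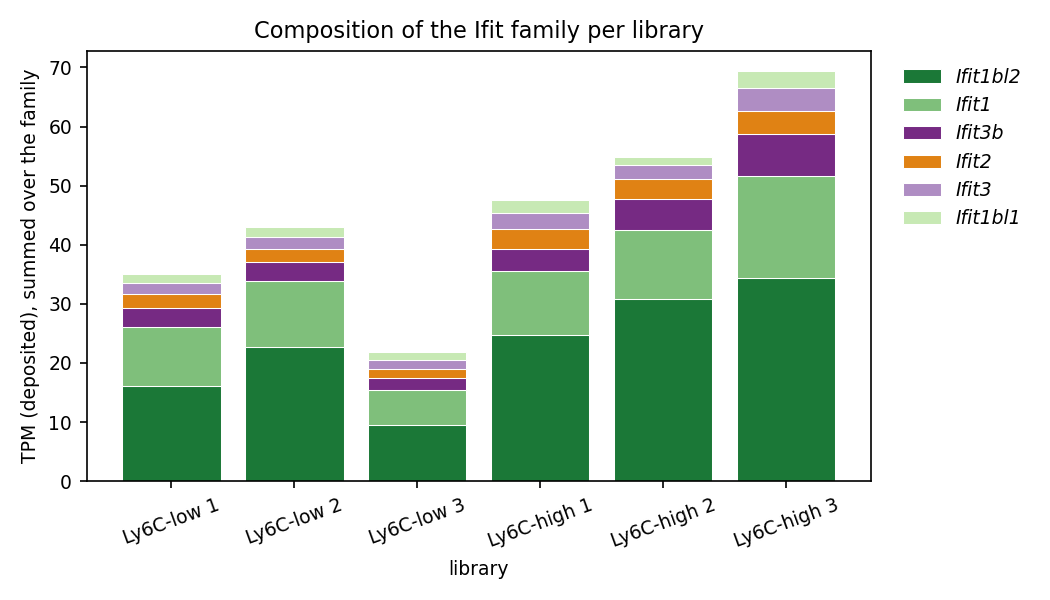
Deposited TPM of the 6 Ifit genes stacked per library, Ly6C-low on the left and Ly6C-high on the right, with 1 colour per gene. Ifit1bl2 is the largest segment in every library, and the stacks reach from 21.8 TPM in Ly6C-low replicate 3 to 69.4 TPM in Ly6C-high replicate 3.

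Family members varied together from library to library. The pairwise Pearson correlations of their log2 CPM over the 6 libraries were between 0.708 and 0.955, as a description only, since the libraries fall into the groups compared and share their depth and scaling. Averaged over the members, the deviation from each gene's mean in log2 units was 0.24, 0.25 and 0.74 for the Ly6C-high libraries and -0.27, -0.12 and -0.84 for the Ly6C-low libraries. Replicate 3 was thus the extreme library of both groups, in opposite directions. Leaving out any 1 library kept all 6 log2 fold changes above 0, with a lowest value of 0.38 (Ifit1bl1) and a highest of 1.32 (Ifit1bl2). For the 5 members whose groups did not overlap this direction was fixed by the choice of members, so it is no sign of stability.

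**Figure D4:**
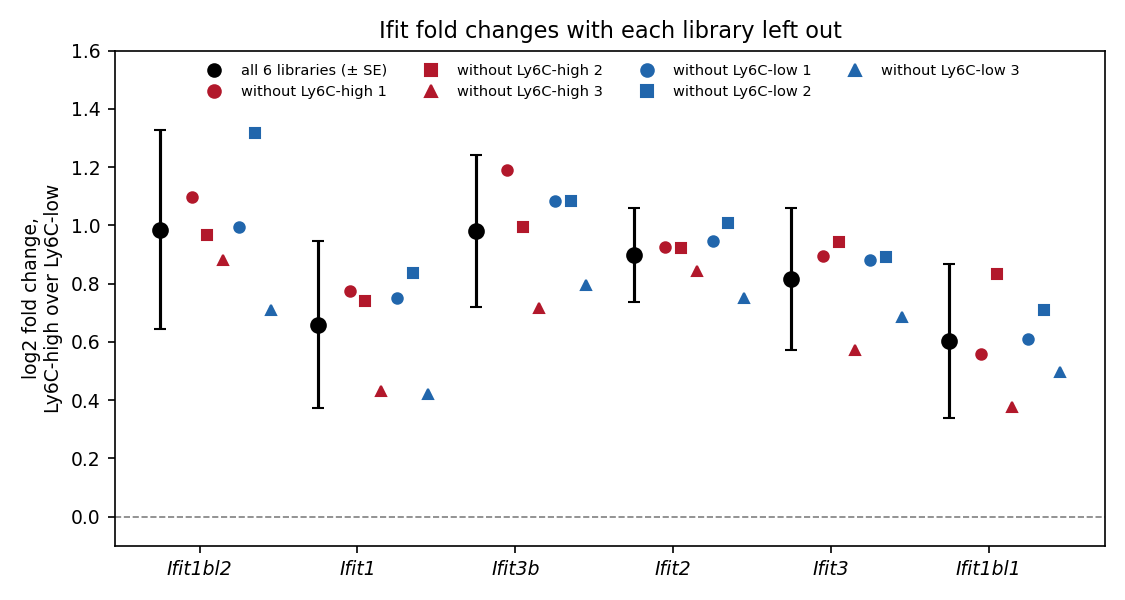
The log2 fold change of each Ifit gene, Ly6C-high over Ly6C-low, from all 6 libraries (black, bars ± SE) and with each library left out in turn (red, a Ly6C-high library; blue, a Ly6C-low library; shape, replicate number). Values stay above 0, a direction fixed by the choice of members for the 5 genes whose groups do not overlap. They are lowest without replicate 3 of either group.

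Set beside all 11406 genes tested, the family's median log2 fold change was 0.86, or 0.70 without Ly6C-low replicate 3, where the median of all genes was -0.004 with quartiles of -0.19 and 0.15. A log2 fold change at or above that of the lowest member was found in 2.75% of genes, and one above 0 in 49.2%. No overlap in CPM with Ly6C-high above was found for 5 of 6 members and for 10.3% of all genes, and in TPM for 4 of 6 members and for 4.36% of all genes. At a Benjamini-Hochberg adjusted p of 0.05 over all genes, 0 of 6 members were called by edgeR's quasi-likelihood test, which called 0.0351% of all genes. An unadjusted p under 0.05 with the higher value in Ly6C-high was given by 5 of 6 members and by 6.92% of all genes. DESeq2 called 2 members, Ifit2 and Ifit3b, with 0.728% of all genes called higher, and limma voom called 0, with 0.0438% called. Without a filter on low counts edgeR called 4 members, with 1.1% of 20580 genes called higher. Because the members were named with this contrast known, nothing further is read from these counts.

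Genes outside the family, placed in lists by role, were read from the same fit. The lists were drawn up with earlier results of these data known, so their counts beside all genes are a description only. Of 96 tested, 71 were interferon receptors and signalling genes, brakes, sensors or antiviral genes, and 25 were cap and translation genes or neighbours of the Ifit cluster. Of all 96, 0 passed an adjusted p of 0.05 by edgeR and 0 by limma voom. DESeq2 called 7, all among the 71 and with the higher level in Ly6C-high. The 11 genes for the interferon ligands themselves were not tested, 10 of them being at 0 counts in all 6 libraries and Ifnk at 5 counts in all. A count of 0 allows up to 3 counts, or 0.175 CPM without TMM scaling in the shallowest library, for counting error only. At an unadjusted p under 0.05 by edgeR, 23 of the 71 were higher and 1 lower in Ly6C-high, against 6.92% and 7.34% of all genes, and without Ly6C-low replicate 3 these numbers were 16 and 1. Of the other 25 genes, 3 were higher and 5 lower.

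Receptors and signalling proteins lay near the middle of all genes, with 10 of 16 above 0 and a median log2 fold change of 0.05, also 0.05 without Ly6C-low replicate 3. Ifnlr1, a receptor chain for type III interferon, measured 49.3, 65.0 and 63.5 CPM in Ly6C-high and 43.1, 48.2 and 45.6 CPM in Ly6C-low, with a log2 fold change of 0.38 (SE 0.11) and an edgeR adjusted p of 0.218. Irf7, a transcription factor that acts on interferon genes, measured 74.6, 83.2 and 106 CPM against 69.4, 72.7 and 53.2 CPM (adjusted p = 0.268 by edgeR). Its relative Irf3 was lower in all Ly6C-high libraries, at 14.7 to 15.8 against 17.5 to 19.1 CPM (adjusted p = 0.291 by edgeR). Stat2 and Irf9, whose products act at the ISRE, had log2 fold changes of 0.23 and 0.22 over all 6 libraries. They were named after their values were seen. Of the genes listed as brakes on interferon signalling, 4 of 8 were above 0, with a median of 0.04, and 0.005 without Ly6C-low replicate 3. Usp18, a protease that also blocks the interferon receptor, had a log2 fold change of 0.55 (SE 0.24) with overlapping groups and an edgeR adjusted p of 0.348. Ifrd1, a transcriptional co-regulator, measured 46.9 ± 3.46 against 33.5 ± 4.87 CPM (SD, n = 3 each). Its edgeR adjusted p was 0.188, and 0.0282 without Ly6C-low replicate 3, the one setting of the leave-one-out fits in which any of the 96 genes passed. Trim24 had a log2 fold change of -0.24, -0.05 without Ly6C-low replicate 3, and overlapping groups.

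Sensors and effectors of the same response had medians above that of all genes and below that of the Ifit family. Of the cytosolic nucleic acid sensors 8 of 11 were above 0, with a median log2 fold change of 0.24 and 0.20 without Ly6C-low replicate 3. Eif2ak2, the double-stranded RNA-activated kinase PKR, measured 14.6, 13.0 and 19.7 CPM in Ly6C-high and 11.9, 11.4 and 10.1 CPM in Ly6C-low (adjusted p = 0.231 by edgeR). Zbp1, a sensor of left-handed nucleic acids, had a log2 fold change of 0.48 (SE 0.12) and Ddx58, which encodes RIG-I, one of 0.35 (SE 0.13), with edgeR adjusted p of 0.189 and 0.289. For Ddx58 the value was 0.20 without Ly6C-low replicate 3. Of the other interferon-induced antiviral genes 34 of 36 were above 0, with a median of 0.30 and 0.24 without Ly6C-low replicate 3. Samd9l measured 335 ± 29.3 against 233 ± 31.1 CPM, Sp100 303 ± 21.3 against 211 ± 32.1 CPM and Ddx60 105 ± 9.52 against 70.9 ± 13.2 CPM (SD, n = 3 each). Their groups did not overlap, their edgeR adjusted p lay between 0.164 and 0.172, and those from DESeq2 between 0.00489 and 0.0105. Ranked by log2 fold change among the 42 tested genes of the antiviral list and the Ifit family together, Ifit1bl2, Ifit3b, Ifit2 and Ifit3 took ranks 1 to 4, Ifit1 rank 7 and Ifit1bl1 rank 8. The members were chosen on this contrast, so their ranks by fold change are a description only. By mean TPM their ranks among 46 genes ran from 21 (Ifit1bl2) to 40 (Ifit1bl1), a middle to low level in this set.

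Cap and translation initiation genes, whose products make or read the structures that IFIT proteins bind or obstruct, had a median below 0. Of 18 genes 4 were above 0, and the median log2 fold change was -0.17, or -0.14 without Ly6C-low replicate 3. Over all 6 libraries the 4 were Rngtt (0.38), Cmtr1 (0.35), Pabpc1 (0.17) and Ramac (0.02), named after their values were seen. Their values without Ly6C-low replicate 3 are not given. With edgeR, DESeq2 and limma voom 0 of 18 passed, and at an unadjusted p under 0.05 by edgeR 5 were lower and 2 higher in Ly6C-high. Eif3a, the largest subunit of the initiation factor eIF3, measured 74.2, 67.6 and 62.8 CPM in Ly6C-high and 87.8, 85.4 and 85.3 CPM in Ly6C-low, with no overlap and an edgeR adjusted p of 0.192. Eif3e of the same complex and the scaffold gene Eif4g1 had log2 fold changes of -0.33 and -0.26, with edgeR adjusted p of 0.257 and 0.262. Of 7 tested genes that lie beside the Ifit cluster on chromosome 19, 6 were above 0, with a median of 0.26, or 0.17 without Ly6C-low replicate 3. Acta2, smooth muscle actin, had a log2 fold change of 0.75 (SE 0.31) and 0.45 without Ly6C-low replicate 3, and its edgeR adjusted p was 0.347. Stambpl1 and Pank1 had log2 fold changes of 0.29 and 0.57 with overlapping groups, or 0.17 and 1.25 without that library, and Pank1 was below 1 CPM in every library.

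**Figure D5:**
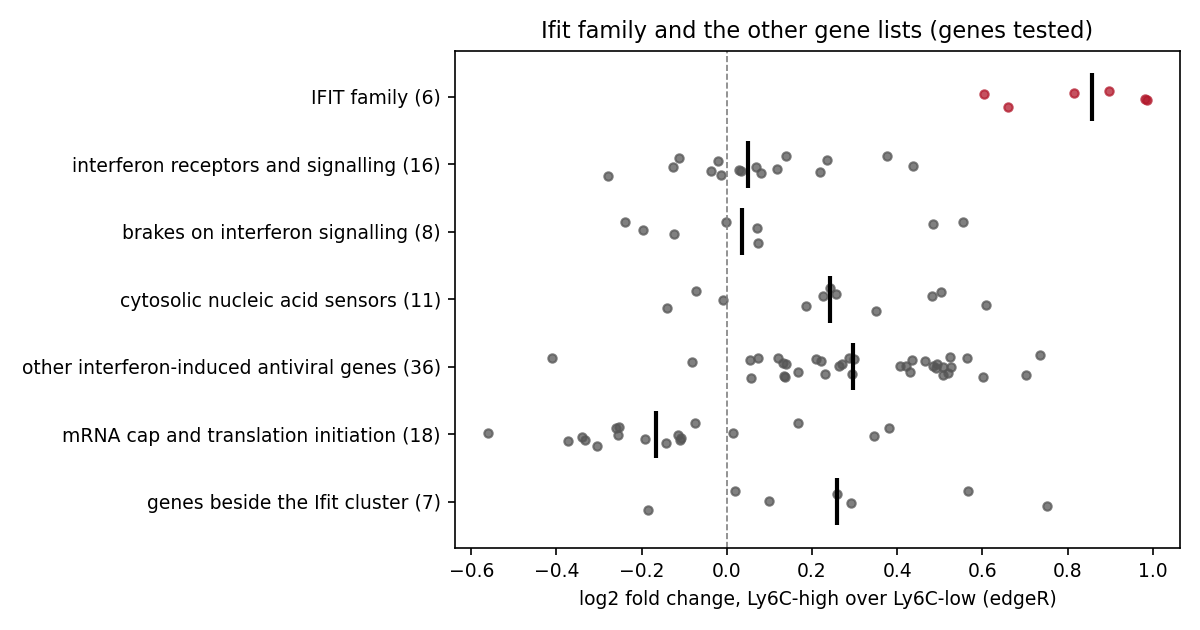
The edgeR log2 fold change, Ly6C-high over Ly6C-low, of each tested gene of the Ifit family (red) and of the interferon, cap and translation, and neighbour lists (grey), with the number tested in brackets and a black bar at each list's median. The family's median of 0.86 lies to the right of the medians of the other lists, which run from -0.17 to 0.30, and the members were named with these values known.

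Among 6919 genes outside the family with a mean of at least 5 CPM, the 6 whose log2 CPM followed that of the summed family most closely over the 6 libraries were Rsad2, Ibtk, Rnf25, Ptpn9, Arid5b and Runx2. Pearson's r lay between 0.984 and 0.996, as the highest of many values over few libraries. Rsad2, which encodes the antiviral enzyme viperin, measured 28.1, 31.9 and 36.4 CPM in Ly6C-high and 19.8, 25.9 and 13.6 CPM in Ly6C-low. Its log2 fold change was 0.70 (SE 0.22), close to that of the Ifit genes, whereas those of the other 5 genes were between 0.17 and 0.37. Without Ly6C-low replicate 3 these values were 0.50 for Rsad2 and 0.12 to 0.28 for the other 5. A close likeness in shape thus included genes with a much smaller range between libraries.

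Markers of other cells that a Ly6G sort could hold were read beside the family. Of 10 monocyte markers, 6, among them Ccr2, F13a1, Ms4a4c, Cx3cr1 and Ace, were higher in all Ly6C-high libraries than in any Ly6C-low library, Ms4a4c on 40 counts over the 6 libraries, where 10.3% of all tested genes had this pattern. Csf1r, the most abundant of the list, was lower in every Ly6C-high library, at 340.2 to 343 against 354 to 423 CPM. The monocyte list summed to 360 to 372 CPM in Ly6C-high and 363 to 439 CPM in Ly6C-low, most of it Csf1r, and without Csf1r to 19.9 to 29.0 against 9.39 to 17.8 CPM. Ccr2 measured 11.6, 11.7 and 10.3 CPM in Ly6C-high and 8.69, 7.75 and 4.45 CPM in Ly6C-low. Markers of plasmacytoid dendritic cells, which make much type I interferon, summed to 19.6 to 21.2 against 13.3 to 19.7 CPM, most of it Tcf4, with Klk1, Cox6a2 and Cd209d at 0 in all 6 libraries. Without Tcf4 that list summed to 0.793 to 1.37 against 0.399 to 0.576 CPM, most of it Ccr9. The sum of eosinophil markers was lower in Ly6C-high, at 36.2 to 49.0 against 59.6 to 65.7 CPM, most of it Siglecf. The sums for T and NK, B, platelet and red cell markers overlapped between groups. The part of other cells, and of Ly6C-low replicate 3 with its basophil and mast cell markers, in the Ifit levels was not tested beyond the values without that library.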

How the data were processed

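The authors quantified the reads with kallisto and named build GRCm39, per the submitters' processing notes; its version, its index and any strand setting: not given in the sources used here. The deposited tables gave estimated counts and TPM per transcript and effective lengths, per the file headers. Of 117486 transcripts 99.04% matched GENCODE M21 by identifier, with at least 99.747% of the estimated counts. Counts were summed per gene and rounded, and members' transcript lengths in the files equalled those of M21.

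All genes were fitted with edgeR 4.0.16 in R 4.3.3 (filterByExpr, TMM, robust quasi-likelihood test, Benjamini-Hochberg adjustment over 11406 genes), a step tested on simulated data. CPM values are TMM-scaled unless stated otherwise, and log2 CPM used a prior count of 2. DESeq2 1.42.0, limma voom (3.58.1), other scalings and filters, a replicate block and leaving out each library were alternatives; counts of non-overlapping members on other scales were added after the data were seen. Named outside the family were the 3 smallest p of each list and the 6 closest in pattern with at least 5 CPM. The 2 most abundant markers were named for the monocyte, plasmacytoid dendritic cell, basophil and mast cell, and mammary tumour cell lists. The other marker lists are given as sums, with Siglecf alone named for eosinophils. Other markers, Stat2, Irf9, Rngtt, Cmtr1, Pabpc1 and Ramac were added. Some genes of the lists are not reported here by name. Members and lists were chosen with earlier results of these data known. Shared 31-base words, coding identity (global alignment of nucleotides, Biopython 1.88; proteins were not used here) and promoter motifs came from M21 and RefSeq. Without molecular identifiers, PCR copies stayed in the counts.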

Additional observations from a re-analysis of the deposited data

How the results depend on the processing

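The log2 fold changes of the 6 members lay between 0.50 and 1.07 under other scalings, filters, tools and the replicate block, and between 0.38 and 1.32 with 1 library left out. For members whose groups do not overlap the direction was fixed by the choice of members, so it is no sign of stability. The log2 ratio of the summed family was 0.89, between 0.78 and 0.90 under other scalings and values, and between 0.64 and 1.14 with 1 library left out. Genes past the edgeR threshold numbered 4, but 8 with library size alone (which moved the median of all genes to -0.11), 439 without a filter on low counts, 126 with DESeq2, 2 with length-scaled TPM and 2 to 22 with 1 library left out, 22 being reached without Ly6C-low replicate 3 and 2 without replicate 2 of either group or without Ly6C-high replicate 3. Of the genes in the lists outside the family 0 passed it, but 21 did without a filter (20 of the interferon lists and Acta2, a neighbour of the cluster), 7 with DESeq2 and 0 to 1 with 1 library left out. The cause of these changes was not tested. With the replicate number as a block, 61 genes and 1 member, Ifit2, were called, against 0.289% of all genes called higher, and the family's log2 ratio was 0.94. Deviations of same-numbered libraries correlated at 0.237, -0.0372 and 0.239. Ly6C-high replicates 1 and 3 correlated best with the same-numbered Ly6C-low library, and Ly6C-high replicate 2 with Ly6C-low replicate 1 (0.11). These values do not settle whether the numbers pair the samples, and the main fit used no pairing. Depth limited Ifit3 and Ifit1bl1 most, with 38 to 118 counts per library.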
